A study of Mus musculus with 12 samples.

Results

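The adrenal medulla of germ-free mice was compared with that of normally colonized mice in the unstimulated arm of an experiment on insulin-induced low blood glucose. All mice were male C57Bl6. The 3 germ-free animals (numbered 7, 8 and 9) were raised without microbes, and the 3 colonized animals (numbered 1, 2 and 3) carried a normal gut microbiota. Both groups fasted for 3 h with water, received saline into the peritoneum and were killed 90 min later, and the dissected medullae were hybridized to 1 Affymetrix array per animal. The comparison uses 6 of the 12 arrays of the series, and the other 6 came from 3 colonized (4, 5 and 6) and 3 germ-free animals (10, 11 and 12) given 2 IU/kg insulin in place of saline. Every gene with a symbol was included, 19505 in all, each represented by its probe set of highest mean level. Where both kinds of mice were bred was not given in the sources used here.

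The adrenal medulla is built of chromaffin cells, relatives of sympathetic neurons that make adrenaline and noradrenaline, store them with chromogranins and peptides, and release them when the splanchnic nerve fires. Acetylcholine and the peptide PACAP from that nerve raise calcium and cyclic AMP in the chromaffin cell, and early response genes such as Fos, Egr1 and the Nr4a family are turned on within minutes to hours. Germ-free mice lack the microbial products that colonized mice absorb from the gut, and they are widely used to ask what those products do in distant organs.

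Values are log2 levels, so that a difference of 1 stands for a 2-fold difference of the deposited values, and every difference is given as germ-free minus colonized with its standard error from limma. The samples carried the genes of their labelled tissue. Th lay at 13.04 to 13.59 and Dbh at 12.95 to 13.34 on the 6 arrays. The steroidogenic genes of the surrounding cortex were bright as well, with Cyp11b1 at 12.51 to 13.37, so RNA of the cortex was present in every sample. The mean of the 12 cortex markers lay between 11.60 and 11.92 in the colonized group and between 12.03 and 12.07 in the germ-free group, and 1 of them, Nr5a1, was called higher (difference 0.72 ± 0.14, adjusted p = 0.0120, limma). Without colonized animal 2, introduced below, 2 were called higher and the median went from 0.35 to 0.15. Over all genes, 2.79% were called higher.

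Hepatocyte genes varied between animals in both groups. Alb, the serum protein made by hepatocytes, read 5.61, 13.23 and 10.53 in colonized animals 1, 2 and 3 and 12.97, 11.48 and 12.10 in germ-free animals 7, 8 and 9. The mean of the 17 hepatocyte markers was 5.86, 10.64 and 7.50 in the colonized and 9.83, 8.28 and 8.82 in the germ-free animals, so the groups overlapped through colonized animal 2. None of the 17 was called (median 1.02, 0 at an unadjusted p under 0.05, limma), and without that animal 7 were called higher (median 2.54). Colonized animal 2 stood apart: its array correlated at 0.954 and 0.968 with the other colonized arrays, which correlated at 0.988 with each other, and the germ-free arrays correlated at 0.990 to 0.993. It also had the highest mean of the sympathetic neuron markers, 9.98 against 8.40 and 8.07 in its group, and of the fibroblast markers, 9.06 against 7.33 and 7.78. The text gives values without it where leaving it out moved a list's count of calls by over 1.5 times, and where it turned a list's median given here or moved it as far. For single genes such values are given for part of those named.

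The arrays also differed in rows without a gene symbol. The median of 5222 rows that the table names as negative controls was 4.71, 4.70 and 4.83 in colonized animals and 5.43, 5.46 and 5.36 in germ-free animals after saline. After insulin it was 4.75 ± 0.01 (SD, n = 3) in colonized and 5.42 ± 0.12 (SD, n = 3) in germ-free animals. The arrays thus separated by colonization in both treatments, by 0.669 in the saline arm. The part of this offset in the gene differences was not tested, since the covariate given with the counts nearly follows colonization. The 95th percentile of these rows was 7.21 to 7.44 on the colonized and 8.23 to 8.31 on the germ-free saline arrays. It lay above the median of the rows with a gene symbol, 6.886 to 6.942 on the colonized and 6.814 to 6.845 on the germ-free saline arrays. What the negative control rows bind was not tested, so this level is a mark and no known limit of detection. For 45 of the 80 called genes named below, the lower group was under that level on all 3 arrays, so a log2 difference of such a gene compares deposited values, some of them within the range of the negative controls, and measures no fold. A bound for these genes takes the higher group's mean over that level of the lower group's arrays and is written as "at least". It makes no allowance for the offset between the arrays, so for a gene higher in germ-free animals it is no firm lower limit. For 18 of the 45 the higher group's mean was not above the level either and there is no bound: Arrdc4, Calb2, Cyp2b10, Cyp3a13, Elavl3, Gjc3, Gpnmb, Hpca, Lypd8, Mbp, Muc2, Mvd, Ncs1, Nfkbiz, Ptgs2, Rab15, Sult4a1 and Tff3. For Gsta2, Kcnq1ot1, Nfil3, Sis, Slc5a1, Tnfaip6 and Zg16 the germ-free mean was under the level of the germ-free arrays, and no bound is given.

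**Figure D1:**
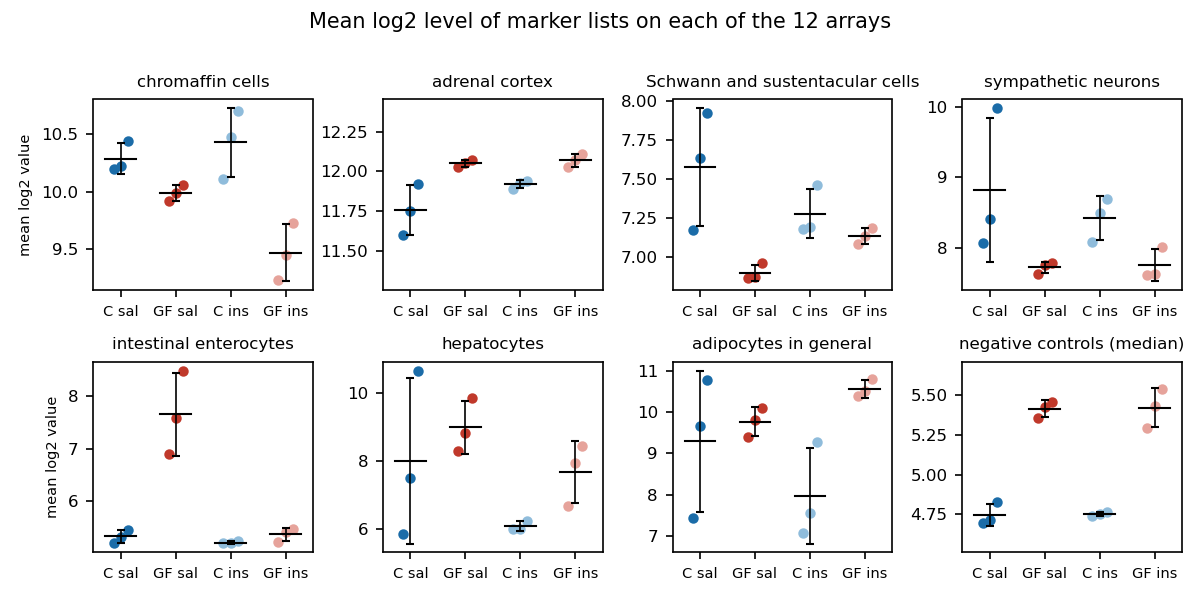
Mean log2 level of 7 marker lists and the median of the negative control rows on each of the 12 arrays. Points are animals, horizontal lines are group means and bars are SDs (n = 3). C is colonized, GF germ-free, sal saline and ins insulin. Enterocyte markers stood at 6.90 to 8.49 in the germ-free saline animals and at 5.46 or below in every other animal, and the negative controls separated by colonization.

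With limma fitted to all 12 arrays, 1342 of the 19505 genes (6.88%) differed between germ-free and colonized animals after saline at an adjusted p under 0.05. Of these, 544 (2.79%) were higher and 798 (4.09%) lower in germ-free animals, and 195 differed by at least 1 log2 unit, 129 higher and 66 lower. All germ-free values lay on 1 side of all colonized values for 27.3% of the 19505 genes (10.9% higher, 16.4% lower), and for 1337 of the 1342 called. The median difference over all genes was -0.04, and 44.0% of genes were above 0.

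The split by direction depended on scaling. The higher share of the called genes was 40.5% as deposited. A second quantile normalization over all probe sets with a gene symbol made it 58.1%, with 1093 genes called (5.6% of all), 635 higher (3.26%) and 458 lower (2.35%). Centring each array on its median made it 64.0%, with 1188 called (6.09%), 760 higher (3.9%) and 428 lower (2.19%). The number called also depended on single animals: it was 432, 513 and 653 without germ-free animals 7, 8 and 9, 870 without colonized animal 1, 1929 without colonized animal 2 (9.89%, with 642 or 3.29% higher and 1287 or 6.6% lower) and 889 without germ-free insulin animal 11. Fitted on the 6 saline arrays alone, 157 genes were called. With the negative control level of each array as a covariate, limma called 0 genes, with 856 at an unadjusted p under 0.05 against 4687 (24.0%) without it. The median of these rows was 4.70 to 4.83 on colonized and 5.36 to 5.46 on germ-free saline arrays, so this covariate nearly coincides with the contrast. Here and in the lists below, lost calls and changed signs under it cannot tell the offset from colonization.

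The 12 highest called genes in the germ-free medulla samples, among those with an informative symbol and no overlap between the arrays, are known from the intestinal epithelium. Reg1, a secreted regenerating-islet lectin, read 3.86, 3.55 and 3.65 in colonized and 10.37, 8.33 and 8.83 in germ-free animals, a difference of 5.49 ± 0.37 in deposited values (adjusted p = 3.54e-05, limma) and at least 3.63-fold. Guca2b, the gut peptide uroguanylin, read 5.37, 5.18 and 5.70 against 11.23, 9.18 and 9.84, at least 6.82-fold (difference 4.67 ± 0.40, adjusted p = 0.000247). Germ-free animal 7 was highest and animal 8 lowest for both genes, and by the rule of choice no colonized value reached the germ-free range.

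The same order of animals held for the brush border. Akp3 and Alpi, the alkaline phosphatases of the duodenum and intestine, differed by 4.39 ± 0.46 and 3.74 ± 0.39. Muc13, a membrane mucin, differed by 4.07 ± 0.37. Fabp2 and Apoa4, which handle absorbed fat, differed by 3.44 ± 0.44 and 3.38 ± 0.38. Digestion and sugar uptake were represented by Mgam, a maltase (3.14 ± 0.42), Sis, sucrase-isomaltase (3.10 ± 0.38), and Slc5a1, the sodium-glucose carrier (3.23 ± 0.33). Gsta2, a glutathione transferase of liver and gut, differed by 3.39 ± 0.53, and Lypd8, which keeps flagellated bacteria off the colon wall, by 3.13 ± 0.34. These 12, the highest called genes under that rule, had adjusted p-values of 3.54e-05 to 0.00498 (limma), and each kept its call without any single array. For Reg1, Muc13, Gsta2, Slc5a1, Lypd8 and Sis all 3 colonized values lay below the negative control median. In all 12 the colonized values lay under the 95th percentile of the negative controls, so their order by size is that of deposited values. The bounds were at least 7.15-fold for Apoa4, 3.89-fold for Alpi, 2.94-fold for Akp3 and 2.07-fold for Muc13. They take the percentile of the colonized arrays. On the germ-free saline arrays that percentile was 8.23 to 8.31, close to the germ-free mean of Muc13, 8.37.

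Of the 20 enterocyte markers listed, 16 were called higher and none lower, where 2.79% of all genes were called higher. Against -0.04 over all genes, the median difference of the markers was 2.94. Their mean was 5.20, 5.46 and 5.32 in colonized animals 1, 2 and 3 and 8.49, 6.90 and 7.58 in germ-free animals 7, 8 and 9. Of 14 goblet, Paneth and crypt cell genes, 6 were called higher and none lower, among them Zg16 (2.45 ± 0.31), Muc2, the main gel-forming mucin (1.60 ± 0.31, between 5.04 and 5.72 against 6.39 to 7.81), and Tff3, a trefoil peptide (1.39 ± 0.32). The call of Tff3 was lost without colonized animal 3 (adjusted p = 0.0519). Of 19 pancreatic acinar genes Reg1 and Zg16 were called higher, both made in the gut as well, and 3 were called higher without colonized animal 2. The 3 germ-free insulin arrays had enterocyte means of 5.42, 5.46 and 5.22, at the colonized level, and none of the 20 markers was called after insulin.

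**Figure D2:**
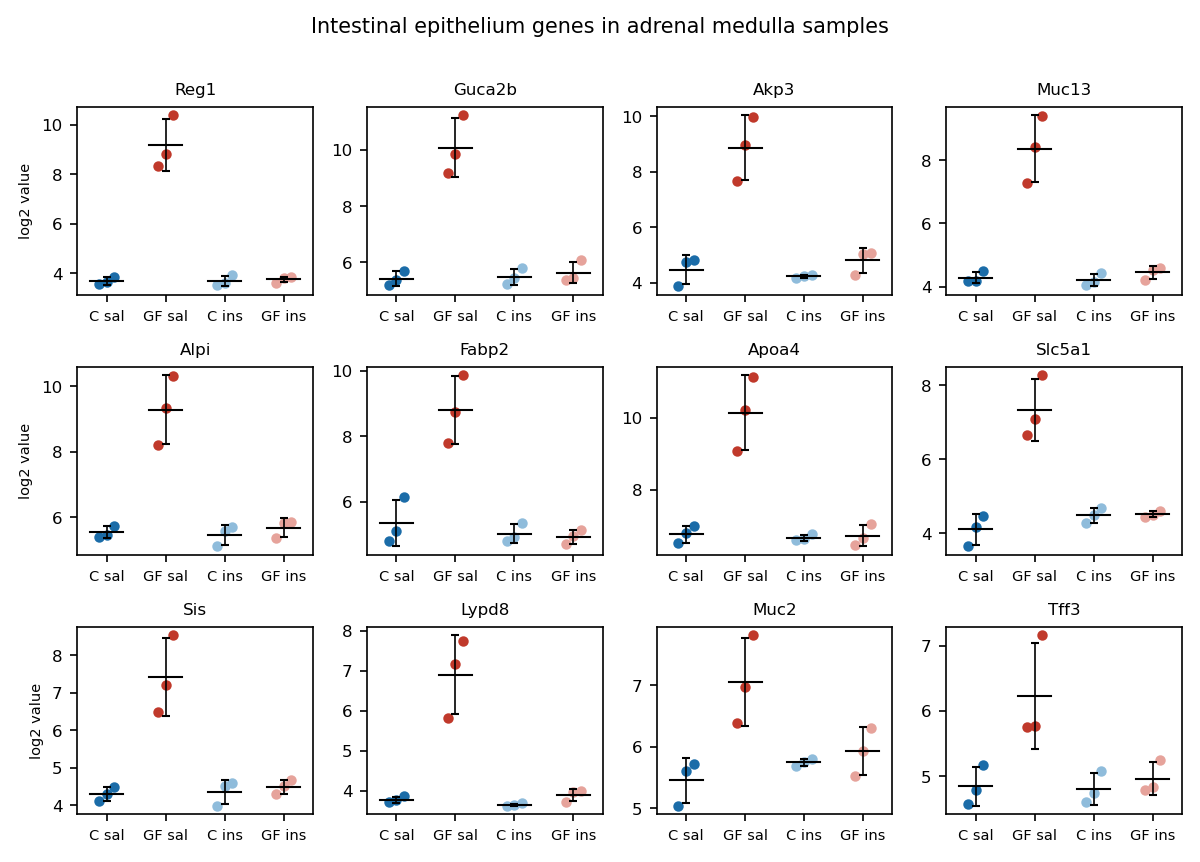
Log2 level of 12 intestinal epithelium genes on each array, by group (points are animals, lines are means, bars are SDs, n = 3). In every panel the 3 germ-free saline animals lie above the 9 others, with Reg1 at 8.33 to 10.37 in them and at 3.55 to 3.86 in colonized saline animals.

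Immediate early genes are those that chromaffin and other excitable cells turn on when stimulated. Of 30 measured, 11 were called higher in the germ-free animals after saline and 0 lower, where 2.79% of all genes were called higher, and 15 had an unadjusted p under 0.05, where 24.0% of all genes did. The median difference was 0.41 against -0.04 over all genes, and 26 of the 30 lay above 0. With the negative control level as a covariate, none was called, the median was -0.040 and 14 of 30 lay above 0. Leaving out colonized animal 2 left 9 called higher. Nr4a1, an orphan nuclear receptor, read 10.70, 10.44 and 11.31 in colonized and 12.07, 12.17 and 11.79 in germ-free animals, a 2.29-fold difference (1.19 ± 0.21, adjusted p = 0.00876, limma). The groups did not overlap, and the call held without any single array. With the negative control covariate the difference of Nr4a1 was -0.58 and not called.

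Its relatives were less even. Nr4a2 read 8.10, 8.10 and 9.30 against 10.05, 10.44 and 9.88 (1.62 ± 0.36, adjusted p = 0.0222), and it lost its call without colonized animal 1 (0.0635), germ-free animal 7 (0.0678) or germ-free animal 8 (0.0832). Nr4a3 read 9.43, 11.39 and 10.59 against 11.96, 11.76 and 11.63 (1.31 ± 0.35, adjusted p = 0.0435). Colonized animal 2 lay close to the germ-free range for Nr4a3, and the call was kept only when that animal was left out (1.77, adjusted p = 0.00293), with values up to 0.136 without the other arrays in turn.

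The AP-1 genes differed among themselves. Fosb was called higher (7.21, 7.49 and 6.82 against 8.45, 8.36 and 8.28; 1.19 ± 0.17, adjusted p = 0.00341). Fos overlapped between the groups, at 7.86, 7.89 and 7.46 against 7.72, 8.12 and 7.79, and its difference was 0.14 ± 0.26 (95% confidence interval -0.42 to 0.70, adjusted p = 0.787). Egr1, a zinc finger factor induced by ERK signalling, read 9.80, 10.47 and 10.08 against 11.01, 11.19 and 10.98 (0.94 ± 0.19, adjusted p = 0.0136), and lost its call without germ-free animal 8 (0.0569). Ier3, an early gene linked to cell survival, was far apart, at 7.72 to 7.87 against 9.25 to 10.11 (1.95 ± 0.26, adjusted p = 0.00192). Gadd45b, a stress-induced gene, differed by 1.23 ± 0.19 (adjusted p = 0.00484).

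Of 14 cyclic AMP and CREB targets, 6 were called higher and none lower (median 0.60, with 11 above 0), where 2.79% of all genes were called higher. With the negative control covariate none of them was called and the median was -0.034. Without colonized animal 2, 7 were called higher and 1 lower. Gem, a small GTPase that damps calcium channels, read 8.38, 9.44 and 8.89 against 10.99, 10.95 and 10.34 (1.85 ± 0.28, adjusted p = 0.00387). Pde10a, a phosphodiesterase that breaks down cyclic nucleotides, read 9.28, 8.68 and 9.17 against 10.87, 10.57 and 11.24, 3.61-fold higher (1.85 ± 0.18, adjusted p = 0.000454). Sik1, a kinase that restrains CREB coactivators, differed by 1.56 ± 0.27 (adjusted p = 0.00845), and Rgs2, which shortens G protein signals, by 0.89 ± 0.25 with an adjusted p just under 0.05. The arrays did not overlap for any of these 4 genes, and Rgs2 lost its call without any of 9 arrays (up to 0.157 without germ-free animal 8).

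Among 15 genes of ERK feedback and phosphatases, 5 were called higher, all of them dual-specificity phosphatases, and none lower, where 2.79% of all genes were called higher. The median was 0.44 with 5 of the 15 below 0, and it was 0.265 without colonized animal 2 and 0.13, with none called, with the negative control covariate. Dusp5, a nuclear ERK phosphatase, read 7.87 to 8.09 against 9.26 to 9.78 (1.52 ± 0.22, adjusted p = 0.00351). Dusp1 differed by 0.81 ± 0.17 (adjusted p = 0.0192), and Dusp14, Dusp8 and Dusp10 by 1.39 ± 0.36, 0.92 ± 0.23 and 0.72 ± 0.16. Colonized animal 2 was the lowest array for those last 3 genes, and without it their differences were 0.88, 0.58 and 0.55, still called. The calls of Dusp1, Dusp8, Dusp10 and Dusp14 were each lost without any of the 3 germ-free animals, with adjusted p-values of 0.0542 to 0.113. Dusp1 lost it also without colonized animal 1 (0.0546), Dusp8 without 4 insulin arrays (4, 10, 11 and 12, up to 0.0567), and Dusp14 without colonized animal 1 and those 4 (up to 0.0584). Ptgs2, the inducible cyclooxygenase, read 4.61, 5.87 and 5.00 against 6.92, 7.58 and 6.90 (1.97 ± 0.46, adjusted p = 0.0276), and lost its call without any of 5 arrays (up to 0.101 without germ-free animal 8).

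**Figure D3:**
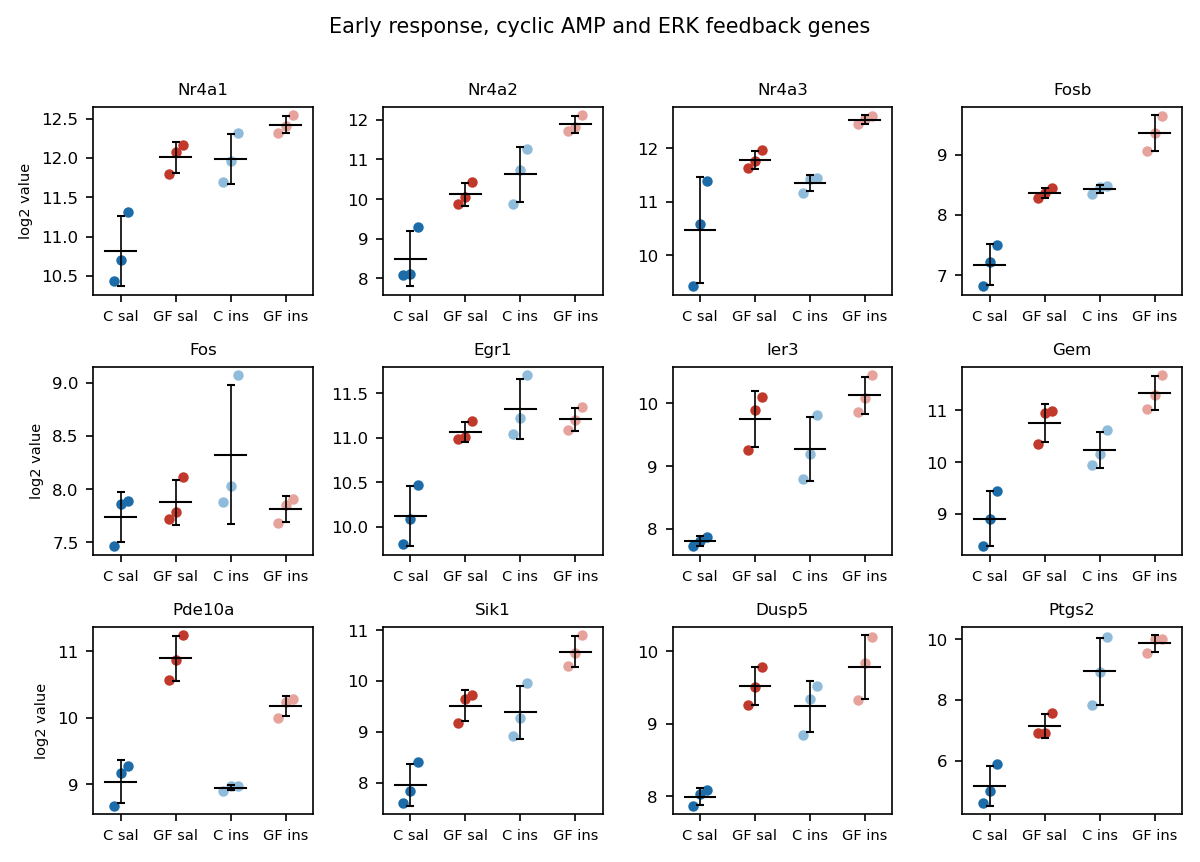
Log2 level of 12 early response, cyclic AMP and ERK feedback genes by group (points are animals, lines are means, bars are SDs, n = 3). After saline Nr4a1 stood between 10.44 and 11.31 in the colonized group and between 11.79 and 12.17 in the germ-free group, while Fos overlapped between them.

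The promoters of these genes are shown for the cyclic AMP response element (CRE), the site of CREB, because a list of CREB targets is among those pooled here. A share of this motif above that of all promoters is thus partly set by the choice of genes. RefSeq promoters (build GRCm38.p6, the 250 bases before each start) were matched for 15 of the 20 early response, cyclic AMP and ERK feedback genes called higher, giving 19 promoters. The TGACG core of the CRE, on either strand, was in 13 of them (68.4%) and in 17.8% of all 32851 promoters. It was also in 24 of 43 promoters (55.8%) of genes of those lists that were not called, and in 12.5% of 16 promoters of enterocyte genes called higher. The full CRE, whose 8 letters include the core, was in 10.5% of the 19 and 1.55% of all. The AP-1 motif TGANTCA was in 5.26% against 6.75%. The serum response element (CCWWWWWWGG, where W is A or T) was in 5.26% of the 19, 14% of the 43 not called and 1.47% of all. A match describes these letters and is no test of binding. The promoters of Nr4a1 (chr15:101266596-101266845, plus strand), Nr4a2 (chr2:57124004-57124253, minus), Nr4a3 (chr4:48045055-48045304, plus), Fosb (chr7:19310046-19310295, minus) and Dusp1 (chr17:26508473-26508722, minus) are printed 5′ to 3′ on the gene's strand, with TGACG or its reverse complement CGTCA in capitals and the full CRE of Dusp1 in capitals throughout.
Nr4a1: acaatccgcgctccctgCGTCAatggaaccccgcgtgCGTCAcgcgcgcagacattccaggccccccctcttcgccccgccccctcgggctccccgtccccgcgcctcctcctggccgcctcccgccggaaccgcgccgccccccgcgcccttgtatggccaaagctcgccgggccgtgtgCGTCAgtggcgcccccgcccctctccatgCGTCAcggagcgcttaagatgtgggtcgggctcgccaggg
Nr4a2: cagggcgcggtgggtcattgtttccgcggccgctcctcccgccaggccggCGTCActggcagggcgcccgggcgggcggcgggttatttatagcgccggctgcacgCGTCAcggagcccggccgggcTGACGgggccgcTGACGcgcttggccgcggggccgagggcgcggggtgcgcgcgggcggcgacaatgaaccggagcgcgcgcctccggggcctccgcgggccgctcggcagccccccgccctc
Nr4a3: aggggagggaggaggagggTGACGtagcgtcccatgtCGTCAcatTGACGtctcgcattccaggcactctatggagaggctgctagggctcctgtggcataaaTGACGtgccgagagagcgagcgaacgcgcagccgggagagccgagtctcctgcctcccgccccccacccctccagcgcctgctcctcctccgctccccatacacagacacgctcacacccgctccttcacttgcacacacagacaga
Fosb: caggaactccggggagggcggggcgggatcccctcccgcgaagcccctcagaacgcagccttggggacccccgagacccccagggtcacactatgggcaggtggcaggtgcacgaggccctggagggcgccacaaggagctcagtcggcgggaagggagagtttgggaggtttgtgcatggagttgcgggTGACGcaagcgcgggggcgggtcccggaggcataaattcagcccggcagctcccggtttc
Dusp1: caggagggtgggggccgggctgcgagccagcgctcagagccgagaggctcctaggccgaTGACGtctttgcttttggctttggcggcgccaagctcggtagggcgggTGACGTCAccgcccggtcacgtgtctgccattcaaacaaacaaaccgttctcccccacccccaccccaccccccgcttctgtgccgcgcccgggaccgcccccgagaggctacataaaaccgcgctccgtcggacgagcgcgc
Each of the 3 Nr4a promoters holds 4 copies of the core. In Nr4a1 they begin 40, 69, 213 and 233 bases before the start, and the single copy of Fosb begins 60 bases before it. Dusp1 holds the only full CRE of the 5.

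Several genes differed between the groups with very little spread within them, in both treatments. Mpp7, a scaffold protein of cell junctions, read 7.29, 6.80 and 6.71 in colonized and 9.57, 9.35 and 9.21 in germ-free animals (2.45 ± 0.16, adjusted p = 3.54e-05, limma), and was 2.84 ± 0.16 higher after insulin. Kcnq1ot1, a long noncoding RNA of an imprinted domain, read 5.91, 6.05 and 6.31 against 8.23, 8.07 and 8.07 (2.04 ± 0.14, adjusted p = 3.54e-05), and was 1.54 ± 0.14 higher after insulin. Its germ-free saline values lay under the 95th percentile of the negative controls on their own arrays. Adarb1, an enzyme that edits adenosine in RNA, read 9.37, 8.97 and 9.46 against 11.59, 11.45 and 11.24, 4.47-fold higher (2.16 ± 0.16, adjusted p = 4.26e-05). None of these values overlapped, and all 3 calls held without any single array.

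Keap1, which marks the antioxidant factor NRF2 for degradation, read 8.79, 8.82 and 8.74 against 7.76, 7.75 and 7.75, at least 1.42-fold lower (-1.03 ± 0.09, adjusted p = 0.000336). Cln6, a lysosome-related membrane protein, read 8.81, 8.66 and 8.84 against 7.72, 7.74 and 7.71 (-1.05 ± 0.10, adjusted p = 0.000450), and differed by -1.06 ± 0.10 after insulin. Ints6l, a gene related to a subunit of the Integrator complex, differed by 1.23 ± 0.12 (adjusted p = 0.000450). Of 18 NRF2 targets listed, only Srxn1, a sulfiredoxin, was called higher (1.73 ± 0.31, adjusted p = 0.00958), and colonized animal 2 was its lowest array (9.43, against 10.69 and 11.19 in its group and 12.13 to 12.20 in germ-free animals). The median of the NRF2 list was -0.10, and over all genes 2.79% were called higher.

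Slc6a5, a glycine transporter, read 6.80, 7.93 and 7.25 against 9.33, 9.21 and 8.88 (1.82 ± 0.32, adjusted p = 0.00871), and Tnfaip6, a hyaluronan-binding protein of inflamed tissue, 6.04, 4.86 and 5.56 against 7.71, 7.57 and 7.27 (2.03 ± 0.32, adjusted p = 0.00515). Vegfa, the vascular growth factor, was 2.05-fold higher (1.04 ± 0.18, adjusted p = 0.00702). Nfil3, a bZIP factor of the clock list, differed by 1.53 ± 0.23 (adjusted p = 0.00360), and was the only one of 18 clock genes called (median 0.07). Without colonized animal 2 the repressor Cry2, the bZIP factor Tef and the repressor Bhlhe41 were called lower as well (-0.39, -0.48 and -0.60), and the median was -0.11. Sgk1, a kinase induced by glucocorticoids and cell stress, differed by 0.75 ± 0.10 (adjusted p = 0.00207), and of the 16 glucocorticoid targets 3 were called higher and none lower (median 0.22). Over all genes, 2.79% were called higher and 4.09% lower.

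Among the lowest genes in germ-free animals were genes of neurons and glia. Hpca, the neuronal calcium sensor hippocalcin, had the most even difference of them: it read 8.20, 8.59 and 7.72 in colonized and 6.42, 6.23 and 6.38 in germ-free animals (-1.83 ± 0.21, adjusted p = 0.000828, limma). Rab15, a small GTPase of endocytic recycling, read 6.69, 7.90 and 6.62 against 5.31, 5.84 and 5.31 (-1.59 ± 0.29, adjusted p = 0.00942). Elavl3, a neuronal RNA-binding protein, read 7.19, 7.51 and 6.56 against 5.75, 5.42 and 5.73 (-1.46 ± 0.28, adjusted p = 0.0113). The germ-free values of Rab15 and Elavl3 lay near the negative control medians of those arrays. These 3 were picked among called genes without overlap between the saline groups, so their lack of overlap follows from the rule. All 3 were called after insulin too, and Elavl3 lost its call by a small margin without germ-free animal 8. Of 13 calcium sensors and calcium handling genes, Hpca, Ncs1 (-0.68 ± 0.17, adjusted p = 0.0341) and Calb2 (-0.63 ± 0.14, adjusted p = 0.0226) were called lower and none higher, and 4 were called lower without colonized animal 2. The share called lower over all genes was 4.09%. Ncs1 lost its call without colonized animal 1 or any germ-free animal (0.0510 to 0.121), and Calb2 without colonized animal 1 or germ-free animals 7 or 8 (0.0640 to 0.0859).

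Glial genes rested more on 1 animal. Fabp7, a fatty acid binder of Schwann and satellite glia, read 9.66, 11.71 and 8.15 against 7.03, 7.27 and 7.25 (-2.66 ± 0.62, adjusted p = 0.0275), and -1.72 without colonized animal 2 (adjusted p = 0.0139). Mbp, the myelin basic protein, read 7.48, 8.90 and 7.37 against 6.87, 6.63 and 6.44 (-1.27 ± 0.31, adjusted p = 0.0343), and -0.78 without that animal (adjusted p = 0.0125). Gjc3, a glial connexin, differed by -1.63 ± 0.39 and by -1.07 without it. Sult4a1, a brain sulfotransferase, and Dpysl3, a cytoskeletal protein of growing axons, differed by -1.91 ± 0.48 and -1.40 ± 0.39, and by -1.15 and -0.77 without it. All 5 stayed called without that animal and lost their calls without any of the germ-free saline animals, with adjusted p-values of 0.0655 to 0.135. Dpysl3 lost its call also without any of the insulin arrays (up to 0.0726), and Fabp7 without colonized animal 1 (0.0534). Sult4a1 lost it without insulin arrays 5, 10 or 11 (up to 0.0533), and Mbp without insulin arrays 4 or 11 (up to 0.0528).

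Of 12 Schwann and sustentacular cell markers, 4 were called lower and none higher (median -0.66), with list means of 7.63, 7.92 and 7.17 in colonized and 6.87, 6.87 and 6.96 in germ-free animals. The share called lower over all genes was 4.09%. By limma none of the 10 sympathetic neuron markers was called, although 8 had an unadjusted p under 0.05 (against 24.0% of all genes) and 8 were lower with no overlap (against 16.4%). Stmn2, a microtubule regulator of growing neurites, was 1 of the 8, at 9.81, 11.40 and 9.48 against 9.02, 9.04 and 9.17 (adjusted p = 0.0804). Its difference ranged from -1.53 to -0.57 with single arrays left out. The list median was -0.96, and -0.53 without colonized animal 2, with 1 called lower. In whole tissue, fewer cells of a type and less RNA per cell cannot be told apart.

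The remaining genes among the 12 lowest had other roles. Gpnmb, a membrane glycoprotein of macrophages and pigment cells, read 7.75, 6.45 and 7.08 against 5.43, 5.30 and 5.55 (-1.66 ± 0.31, adjusted p = 0.0103), with germ-free values near their negative control medians. Sfrp1, a secreted Wnt inhibitor, read 8.44, 9.13 and 8.36 against 7.32, 6.66 and 7.25 (-1.57 ± 0.27, adjusted p = 0.00720). Hhex, a homeobox factor, read 9.53, 8.01 and 8.26 against 6.71, 7.06 and 7.04 (-1.66 ± 0.29, adjusted p = 0.00861). Susd3 and Mmd2 differed by -1.68 ± 0.34 and -1.47 ± 0.32. Their calls were lost without germ-free animal 7 (0.0578 and 0.0909), that of Susd3 also without animal 9 (0.0517) and that of Mmd2 without animal 8 (0.0578).

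**Figure D4:**
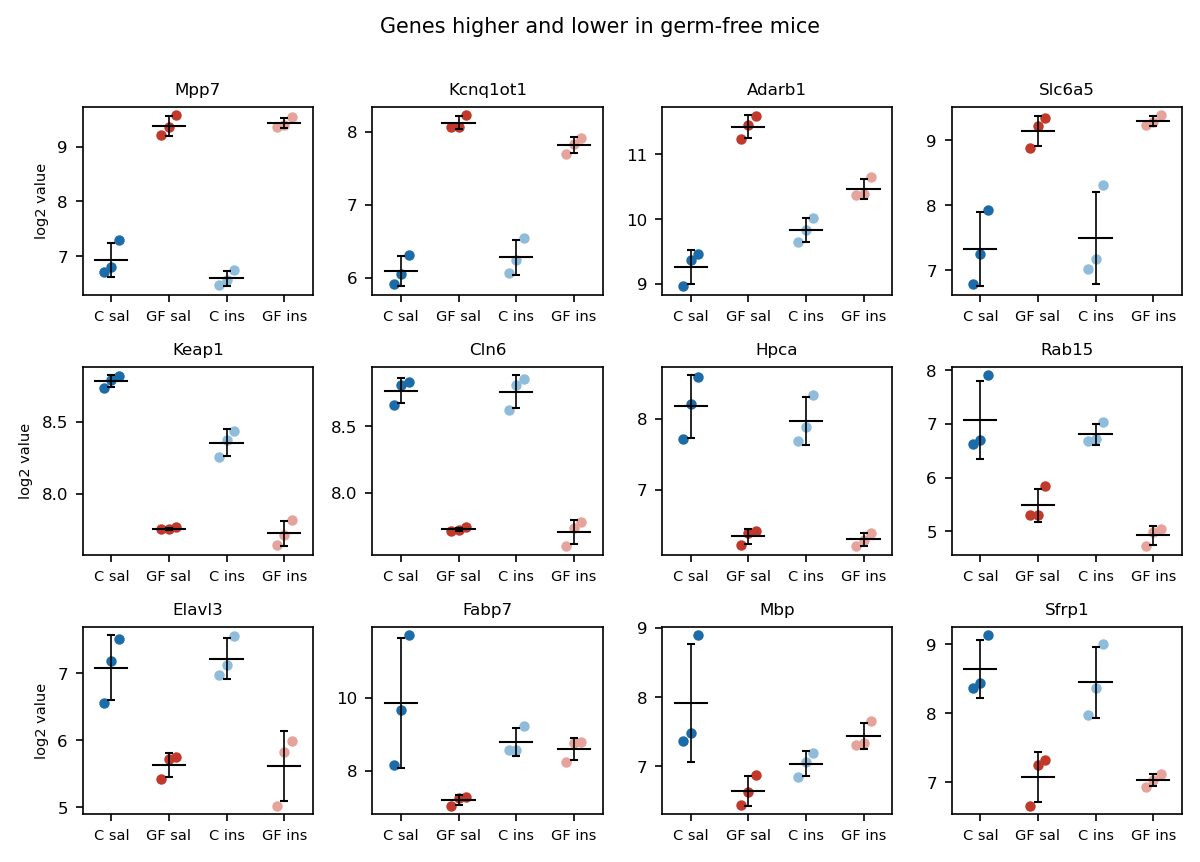
Log2 level of 12 genes that were higher or lower in germ-free animals after saline, by group (points are animals, lines are means, bars are SDs, n = 3). Mpp7 and Kcnq1ot1 were higher and Cln6 and Hpca lower in germ-free animals in both treatments, while Fabp7 and Mbp were highest in 1 colonized saline animal.

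The catecholamine pathway itself was not distinguishable between the groups at 3 animals each. Th, the rate-limiting enzyme of catecholamine synthesis, read 13.59, 13.04 and 13.57 in colonized and 13.41, 13.46 and 13.54 in germ-free animals (0.07 ± 0.16, 95% confidence interval -0.28 to 0.42, adjusted p = 0.836, limma). Dbh, which makes noradrenaline, differed by -0.07 ± 0.19 (-0.48 to 0.34), and Pnmt, which makes adrenaline, by 0.03 ± 0.27 (-0.56 to 0.63). Without colonized animal 2, Th and Pnmt differed by -0.11 and -0.28, neither of them called. Ddc, the decarboxylase between them, read 10.31, 10.32 and 9.82 against 9.56, 9.53 and 9.80, without overlap, but did not pass the test (-0.52 ± 0.18, adjusted p = 0.108). None of the 11 catecholamine synthesis genes was called (5 at an unadjusted p under 0.05, where 24.0% of all genes were), with a median of -0.07 that turned to 0.008 with each array centred on its median. Without colonized animal 2 the median was -0.22 and Cyb561, a granule cytochrome that recycles ascorbate, was called lower (-0.60, and -0.79 without that animal, adjusted p = 0.0244). Of the 11, 5 were lower with no overlap between the arrays, where 16.4% of all genes were. Nor was any of the 14 chromaffin cell markers called (4 at an unadjusted p under 0.05), and Cyb561 was again the 1 called lower without colonized animal 2. Their mean did not overlap, at 10.44, 10.22 and 10.20 in colonized and 9.92, 9.99 and 10.06 in germ-free animals. The median was -0.24, with 10 of the 14 below 0 and 4 lower with no overlap. After insulin 9 of the 14 were called lower, where 5.15% of all genes were.

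Storage and release genes gave single calls, where 6.88% of all genes were called and 24.0% had an unadjusted p under 0.05. A single call in lists of this size is near the share of all genes. Chga, chromogranin A, differed by -0.04 ± 0.18, and Npy, the peptide released with catecholamines, by -0.20 ± 0.25. Pcsk1n, an inhibitor of the prohormone convertase, was the 1 of 10 granin and processing genes called, at 9.95, 9.50 and 9.72 against 8.57, 8.71 and 8.89 (95% confidence interval of the difference -1.52 to -0.48, adjusted p = 0.0299). It lost the call without any of 5 arrays (up to 0.108 without germ-free animal 7), and the list median was -0.20, and -0.38 without colonized animal 2. Adm, the vasodilator peptide adrenomedullin, was the 1 of 15 neuropeptide genes called, at 9.84, 8.82 and 9.42 against 8.38, 8.31 and 8.51 (-0.96 ± 0.21, adjusted p = 0.0217). Without colonized animal 1, germ-free animal 7 or germ-free animal 8 the adjusted p of Adm was 0.0508, 0.0744 and 0.0755. Nsf, the ATPase that recycles fusion complexes, was the 1 of 18 exocytosis genes called and was higher (0.61 ± 0.14, adjusted p = 0.0279), lost without germ-free animal 7 (0.111) or 8 (0.0876), and the median of that list was -0.41, and -0.27 with 1 called lower as well without colonized animal 2. Rest, the repressor of neuronal genes, was the 1 of 11 transcription factors called (-0.61 ± 0.13, adjusted p = 0.0206), lost without germ-free animal 8 (0.0682) or 9 (0.0722). None of the 13 receptors for splanchnic and other inputs was called, with 5 at an unadjusted p under 0.05, and 1 was called lower without colonized animal 2.

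Of 17 genes of cholesterol synthesis and uptake, 6 were called lower in germ-free animals and none higher, where 4.09% of all genes were called lower. The median was -0.43 with 3 of the 17 above 0, 3 were called lower after a second quantile normalization and 4 with centred arrays, and 9 were called lower without colonized animal 2. Srebf2, the transcription factor that drives the pathway, read 11.24, 10.85 and 11.22 against 10.23, 10.38 and 10.49 (-0.74 ± 0.12, adjusted p = 0.00552, limma). Fdft1, squalene synthase, differed by -0.72 ± 0.12 (adjusted p = 0.00576), Fdps by -0.88 ± 0.19 (0.0203) and Mvd by -0.83 ± 0.19 (0.0257). Srebf2 and Fdft1 kept their calls without any single array, Fdps lost its call without colonized animal 1 or germ-free animals 7 or 8 (up to 0.0835), and Mvd without any of 5 arrays (up to 0.0909). The adrenal cortex, which uses this pathway for steroids, was present in all samples, as the levels of its markers show.

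Of 20 glycolysis and glucose transport genes, 5 were called lower and 1 higher (median -0.33, with 4 above 0), and 3 were called lower under either other scaling. Over all genes, 4.09% were called lower and 2.79% higher, so 1 higher call, here and in the next list, is near the share of all genes. Hk1, the main hexokinase of neurons and red cells, read 9.63, 10.60 and 9.47 against 8.53, 8.78 and 8.79 (-1.20 ± 0.24, adjusted p = 0.0131), and -0.85 without colonized animal 2; its call was lost without germ-free animal 7 (0.0608). The phosphofructokinase subunits Pfkm and Pfkl differed by -0.73 ± 0.12 (adjusted p = 0.00559) and -0.66 ± 0.12 (0.00996). Slc2a1, the glucose transporter GLUT1, was the gene called higher (0.57 ± 0.13, adjusted p = 0.0237), lost without colonized animal 1 or germ-free animals 7 or 9 (up to 0.0850). Of 23 insulin signalling and FOXO target genes, 6 were called lower and 1 higher (median -0.32), and without colonized animal 2 the median was -0.20 with 6 lower and 2 higher. Txnip, a glucose-induced arrestin that restrains glucose uptake, read 12.13, 12.40 and 12.21 against 11.54, 11.36 and 11.45 (-0.80 ± 0.16, adjusted p = 0.0151), and its relative Arrdc4 differed by -0.60 ± 0.13 (0.0194). Irs2, the insulin receptor substrate, was the 1 called higher (0.58 ± 0.12, adjusted p = 0.0177). Txnip lost its call without germ-free animal 8 (0.0606), and Arrdc4 and Irs2 without germ-free animals 7 or 8 (up to 0.0780).

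The lists of genes that respond to microbes are given beside all genes, of which 6.88% were called and 24.0% had an unadjusted p under 0.05. By limma none of 32 interferon-stimulated genes was called (4 at an unadjusted p under 0.05, median 0.16), nor any of 17 antigen presentation genes (3, median -0.05, of unstable sign across scalings), nor any of 15 macrophage markers (6, median -0.18). Without colonized animal 2 the interferon median was 0.028 with Iigp1, an interferon-induced GTPase, called higher (1.56), the macrophage median -0.018 with Folr2, a folate receptor of resident macrophages, called higher (0.69), and the antigen presentation median -0.021 with Tap2, a peptide transporter, called lower (-0.58). Of 20 sensors of microbial patterns, Lbp, the binding protein for bacterial lipopolysaccharide, was called lower, at 9.12, 9.33 and 9.15 against 8.53, 8.31 and 8.40 (-0.79 ± 0.18, adjusted p = 0.0280, limma). It lost its call without colonized animal 1 or any germ-free animal (up to 0.0959 without animal 8), and the list median was -0.19, and -0.066 without colonized animal 2. Of 25 cytokine and NF-kB feedback genes, Nfkbiz, an inducible regulator of NF-kB, was called higher (0.60 ± 0.11, adjusted p = 0.0116), lost without germ-free animal 7 (0.0553), and without colonized animal 2 another of the 25 was called lower.

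Genes of foreign compound metabolism gave calls in both directions. Cyp1b1, a target of the aryl hydrocarbon receptor that senses microbial indoles, was the 1 of 11 genes of its pathway called, at 8.58, 8.88 and 8.41 against 7.50, 7.41 and 7.69, at least 1.27-fold lower (-1.09 ± 0.20, adjusted p = 0.0108). It was still called without colonized animal 2, and Cyp1a2 and Tdo2, both known from liver, were called higher (2.00 and 2.01, against 0.65 and 0.66 with it). Of 16 xenobiotic genes 3 were called higher, Gsta2, Cyp3a13 (2.16 ± 0.36, adjusted p = 0.00624) and Cyp2b10 (1.80 ± 0.39, adjusted p = 0.0194). Over all genes, 2.79% were called higher and 4.09% lower. Cyp3a13 and Cyp2b10 read highest in germ-free animal 7 (7.50 and 7.42) and lowest of the group in animal 8 (5.82 and 5.50), the order seen for the enterocyte markers. The part of enterocyte RNA in these values was not tested, since the covariate in the closing section nearly coincides with the germ-free saline group. Cyp2b10 lost its call without colonized animal 1 (0.0569). Without colonized animal 2 the xenobiotic median went from 0.25 to 0.54, with 4 genes called higher and 1 lower.

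The same contrast was made in the insulin arm on 6 other arrays. There 1512 genes (7.75%) were called, 507 higher (2.6%) and 1005 lower (5.15%). Of the 1342 called after saline, 1220 had the same sign after insulin, where 65.7% of all genes had one sign in both arms, and 481 were called the same way, which is 35.8% of the saline calls and 31.8% of the insulin calls. By direction, 159 of the 544 higher genes and 322 of the 798 lower genes were called the same way after insulin, and 2 genes, Palmd and Pank1, were called the opposite way. Across all 19505 genes the differences in the saline and the insulin arm correlated at r = 0.450 (Spearman rho = 0.454), a description across genes that share probes and processing. The largest genes called in both were Mpp7, Slc6a5, Kcnq1ot1, Pde10a and Tnfaip6 among the higher and Rab15, Hpca, Elavl3, Gpnmb and Sfrp1 among the lower. Slc6a5 was 1.79 ± 0.32 higher and Rab15 differed by -1.88 ± 0.29 after insulin.

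The difference between both contrasts was tested gene by gene, and 7 genes (0.0359%) were called, 5 with a larger (0.0256%) and 2 with a smaller (0.0103%) value after saline, with 1941 at an unadjusted p under 0.05. The germ-free difference was larger after saline for Reg1 by 5.43 ± 0.53 (adjusted p = 0.00496, limma), Guca2b by 4.52 ± 0.57 (0.0363), Muc13 by 3.83 ± 0.53 (0.0462), Slc5a1 by 3.20 ± 0.46 (0.0462) and Adarb1 by 1.52 ± 0.22 (0.0462). Adarb1 was still higher after insulin, by 0.64 ± 0.16 (adjusted p = 0.0288). It was smaller after saline for Gh, growth hormone (-4.32 ± 0.63, adjusted p = 0.0462), a pituitary gene read at 6.11, 7.81 and 6.43 in germ-free saline animals, and for Slc25a20, the mitochondrial carnitine carrier (-1.06 ± 0.15, 0.0462). Activity genes did not pass this test: for Nr4a1 the saline and insulin differences were 1.19 and 0.43 and their difference 0.76 ± 0.30 (adjusted p = 0.422), and for Egr1 0.94, -0.11 and 1.06 ± 0.26 (0.212).

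**Figure D5:**
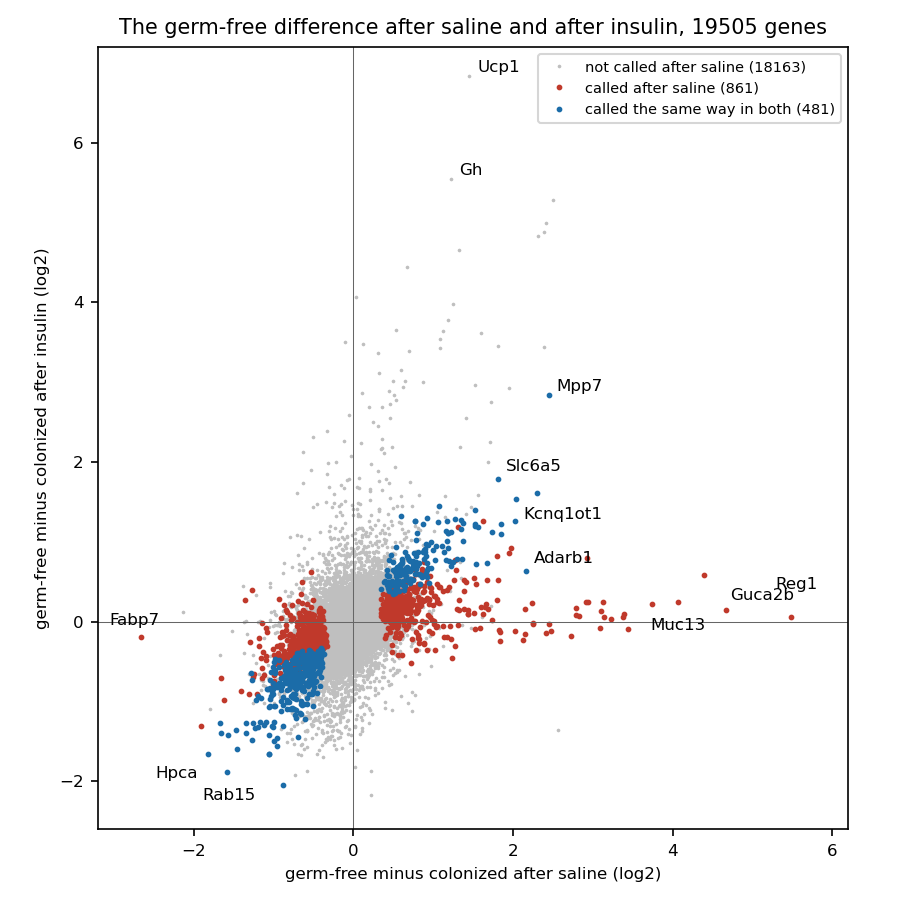
Germ-free minus colonized difference of each of the 19505 genes after saline (horizontal, log2) and after insulin (vertical, log2). Grey genes were not called after saline, red genes were called after saline, and blue genes were called the same way in both arms (481). Reg1, Guca2b and Muc13 lie far right at an insulin difference near 0, and Mpp7, Slc6a5, Hpca and Rab15 lie along the diagonal.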

How the data were processed

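RNA of 12 dissected adrenal medullae was measured, 1 Affymetrix array per animal, 3 in each of 4 groups. The authors deposited log2 values, made with RMA, and used limma, per the submitters' processing notes. RMA subtracts background, quantile normalizes the arrays and summarizes probes, so the arrays share a scale and an overall shift cannot be seen. The genome build and array annotation were not given in the sources used here. Array number and spread limit the precision.

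Of 28846 rows, 19572 had 1 gene symbol and none had several. They cover 19505 genes, and 55 genes have more than 1 probe set, of which the one with the highest mean was used. Limma 3.58.1 in R 4.3.3 was fitted to the 4 group means with all 19572 probe sets, using 8 residual and 4.08 prior degrees of freedom. Benjamini-Hochberg adjustment ran over the probe sets, and a gene was called at an adjusted p under 0.05. Groups come from the labels.

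The genes named are the 12 highest and 12 lowest called genes whose arrays do not overlap and whose symbol is informative, the 6 others of lowest adjusted p, up to 5 of largest size in each list, 10 genes of the medulla, and those shared with or different from the insulin arm. Symbols of Gm plus digits, symbols ending in Rik and bare accessions counted as uninformative, which held for 45 called genes. Fosb, Rgs2, Fdft1, Arrdc4, Irs2, Nsf, Alb, Stmn2, Cyp11b1, Palmd, Pank1, Cyb561, Cry2, Tef, Bhlhe41, Iigp1, Folr2, Tap2, Cyp1a2 and Tdo2 were named outside this rule, after their values were seen. The comparison and the 60 gene lists were chosen with earlier results of these data known.

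The negative control rows served as a level of each array, as the filter on dim probe sets, as a covariate and, in the fit of all rows, as rows tested, and bounds from their 95th percentile were added after seeing the data. Alternatives were other scalings, filters, fit options, thresholds, marker levels as covariates and leaving out each array. The covariates of negative controls, enterocytes, Schwann cells and sympathetic neurons were chosen after seeing the data.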

Additional observations from a re-analysis of the deposited data

Results flagged for a closer look

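For 7 genes the germ-free difference was not the same after saline and after insulin by limma's test of the difference itself, at an adjusted p under 0.05. The saline difference exceeded the insulin difference by 5.43 for Reg1, 4.52 for Guca2b, 3.83 for Muc13, 3.20 for Slc5a1 and 1.52 for Adarb1. For Gh and Slc25a20 the saline difference minus the insulin difference was -4.32 and -1.06. The first 4 are intestinal genes, high in the 3 germ-free saline animals and at the colonized level in the germ-free insulin animals. Adarb1 differed in the same direction in both arms. Without single arrays, 1 to 83 genes were called in this test.

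The rows of negative controls, which have no gene symbol and are compared here only as a measure of the arrays, read higher in germ-free than in colonized animals. What they bind was not tested. The median differed by 0.669 after saline (5.36 to 5.46 against 4.70 to 4.83), and the arrays of the 2 kinds of mice did not overlap in either arm. Hybridization or scan batches are not given in the labels, so a batch and the colonization of the mice cannot be told apart.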

How the results depend on the processing

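After saline, counts of genes called stayed within 1.5 times of 1342 for all rows (1668), 1 probe set per gene (1340), dim probe sets left out (1375), both scalings (1093 and 1188), trend and robust options (1497) and the adipocyte covariate (1949). They moved to 2348 with array weights, 157 in the compared groups alone, 2525 with a hepatocyte covariate and 0 with a cortex covariate (2852 at an unadjusted p under 0.05). With covariates added after seeing the data they were 0 for negative controls (856), 0 for enterocytes (969), 4 for Schwann cells and 665 for sympathetic neurons. Thresholds of 0.01, 0.1 and 0.05 with a size of at least 1 gave 289, 2442 and 195, and single arrays left out 432 to 1929. After insulin the 1512 calls moved to 3712 with array weights, 53 with adipocytes, 0 with negative controls, 2433 with sympathetic neurons, 389, 2508 and 359 at those thresholds and 450 to 2841 without single arrays. The 7 calls for the difference moved to 1 with all rows, 13 without dim probe sets, 2 with centred arrays, 148 with array weights, 1 with cortex, 1 with adipocytes, 78 with hepatocytes, 0 with enterocytes, 0 with Schwann cells, 12 with sympathetic neurons, 1 and 49 at 0.01 and 0.1, and 1 to 83 without single arrays. Of the 80 called genes named, 76 kept their call under a second quantile normalization, 79 with centred arrays and 35 in the compared groups alone, and none of them changed sign in those 3 settings. Differences that changed sign all had adjusted p-values above 0.05 where they did. With the negative control covariate they were Nr4a1 -0.58, Nr4a2 -1.30, Fos -0.074, Ier3 -0.0062, Gadd45b -0.83, Sik1 -1.05, Rgs2 -0.84, Dusp5 -0.71, Dusp14 -0.24, Tnfaip6 -0.67, Fabp7 0.52, Sult4a1 0.66, Susd3 1.33, Gjc3 0.78, Mmd2 0.69, Dpysl3 0.34, Ncs1 0.15, Calb2 0.46, Dbh 1.21, Ddc 1.29, Chga 0.27, Npy 0.14, Pcsk1n 0.39, Nsf -0.33, Hk1 0.060, Irs2 -0.0082, Cyp1b1 0.23, Vegfa -0.70, Nfil3 -0.023, Gh -2.73, Cyb561 0.56 and Stmn2 1.35. With enterocytes they were Gsta2 -0.78, Mgam -0.21, Muc2 -0.39, Tff3 -0.60, Chga 0.12, Cyp3a13 -0.43, Cyp2b10 -1.22, Slc25a20 0.096, Bhlhe41 0.11, Iigp1 -1.04, Folr2 -0.62, Cyp1a2 -3.26, Tdo2 -3.33 and Alb -2.52. With Schwann cells they were Fabp7 0.22, Sult4a1 0.024, Dpysl3 0.12, Th -0.17, Dbh 0.042, Pnmt -0.22, Ddc 0.083 and Stmn2 0.33. With cortex they were Fabp7 0.29, Sult4a1 0.26, Dpysl3 0.28, Th -0.24, Dbh 0.021, Pnmt -0.42, Ddc 0.069 and Stmn2 0.58. With sympathetic neurons they were Th -0.12 and Pnmt -0.27, with adipocytes Dbh 0.014 and Chga 0.041, with hepatocytes Chga 0.075, Folr2 -0.00061, Cyp1a2 -0.30 and Tdo2 -0.31, with array weights Th -0.067 and Pnmt -0.17 and with centred arrays Dbh 0.0083 and Chga 0.040. Without single arrays the range was -0.11 to 0.16 for Th, -0.16 to 0.033 for Dbh, -0.28 to 0.25 for Pnmt, -0.28 to 0.088 for Chga, -0.12 to 2.00 for Cyp1a2 and -0.19 to 2.01 for Tdo2. The cause of these moves was not tested. The negative control level nearly follows colonization. The enterocyte mean was 6.90 to 8.49 in the germ-free saline animals and 5.46 or below in every other animal. The cortex and Schwann cell means did not overlap between the saline groups either, and the Schwann cell list holds Fabp7 itself. Such covariates take up the contrast as well, so calls and signs under them cannot tell it from what they measure. No paired analysis was possible because the groups share no replicate numbers.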
